A study of Mus musculus with 8 samples.

Results

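Integrins, laminins and nidogens were compared between hearts of WT and Mettl3 KO mice. The members were the protein-coding genes whose symbol begins as an integrin alpha or beta chain, a laminin alpha, beta or gamma chain, or a nidogen, which gave 42 of the 23045 genes in the table, of which 15157 are protein-coding. They comprise 18 integrin alpha chains, 8 integrin beta chains, 5 laminin alpha, 3 laminin beta and 3 laminin gamma chains, and 2 nidogens. The symbols also brought in 3 genes that are not integrins, Itgb1bp1, Itgb1bp2 and Itgb3bp, which were named for binding to integrin tails and are given separately. Values are normalized read counts, meaning reads per gene scaled to make libraries comparable. Genes with a mean of at least 1 were tested, which left out Lama1 and Itgad and kept 40 members.

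Integrins are heterodimers of an alpha and a beta chain that span the plasma membrane and tie the cytoskeleton to the matrix outside the cell. Laminins are trimers of an alpha, a beta and a gamma chain and form the sheet of the basement membrane, and nidogens link that sheet to the network of type IV collagen and to perlecan. In the heart a basement membrane surrounds each cardiomyocyte and underlies the endothelium, and cardiomyocytes hold on to it mainly through laminin-binding integrins and dystroglycan.

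Both genotypes carried loxP-flanked Mettl3 (Mettl3lox/lox). Mettl3 encodes the enzyme that places N6-methyladenosine on RNA. The Mettl3 KO mice additionally carried αMHC-MerCreMer, a Cre recombinase that is made under a cardiomyocyte promoter and is active in the presence of tamoxifen. Both genotypes, aged between 10 and 16 weeks, had received tamoxifen on 7 consecutive days, and RNA-seq was done on 4 hearts of each. The WT mice had no Cre, so presence of the transgene cannot be told apart from loss of Mettl3. The libraries were made from total RNA of heart tissue, in which recombination was directed to cardiomyocytes, and fewer cells of a type and less RNA per cell cannot be told apart. The labels name hearts as the source, and p-values measure the spread between these 8 libraries.

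Mettl3 itself had 116 ± 12.8 normalized read counts in WT and 72.2 ± 4.65 in Mettl3 KO hearts (SD, n = 4 each), a log2 fold change of -0.67 ± 0.10 (SE; adjusted p = 0.000184 by limma). Values summed to 2839589 to 2916986 per library, and the reads behind them were estimated at 2631904 to 3061268. A value of 0 allows up to 3 reads, which stands for 2.78 to 3.33 normalized read counts depending on the library and covers counting error only. Libraries stood apart in genes of atrial cardiomyocytes. The mean log2 value of 6 such genes was 5.19 to 5.41 in WT 1, WT 2 and WT 4, 3.48 in WT 3, 5.41 in Mettl3 KO 1 and 7.45 to 8 in the other Mettl3 KO libraries. Results are therefore also given with this atrial index as a covariate. The index partly follows genotype, so the covariate takes up part of the difference between the genotypes. Cardiomyocyte markers such as Myh6 and Tnnt2 were abundant in every library, and none of the 8 on that list passed with limma (median log2 fold change 0.08), while 1 had an unadjusted p under 0.05 and limma voom called 0.

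Of the 40 members tested, 10 had a limma adjusted p under 0.05, or 25.0% against 7.91% of all genes tested. With a filter at a mean of at least 10, 35 members were tested and 5 were higher and 5 lower. The share of all genes called was then 12.2%. Itga11, Itga5, Itga7, Itgb5 and Itgb1bp2 were higher in Mettl3 KO hearts, where 4.72% of all genes were called higher. Itga6, Itgb6, Lama5, Lamb1 and Lamb3 were lower, where 3.19% of all genes were called lower. The median log2 fold change over the members was 0.05 and that over all genes was -0.01. In 11 members no value of one genotype reached into the range of the other, 7 with every Mettl3 KO library above every WT library and 4 below, or 27.5% against 11.5% of all genes. Most changes were small. Of the 10 called members, Lamb3 and Itga11 were the ones that moved by more than 0.5 on the log2 scale.

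**Figure D1:**
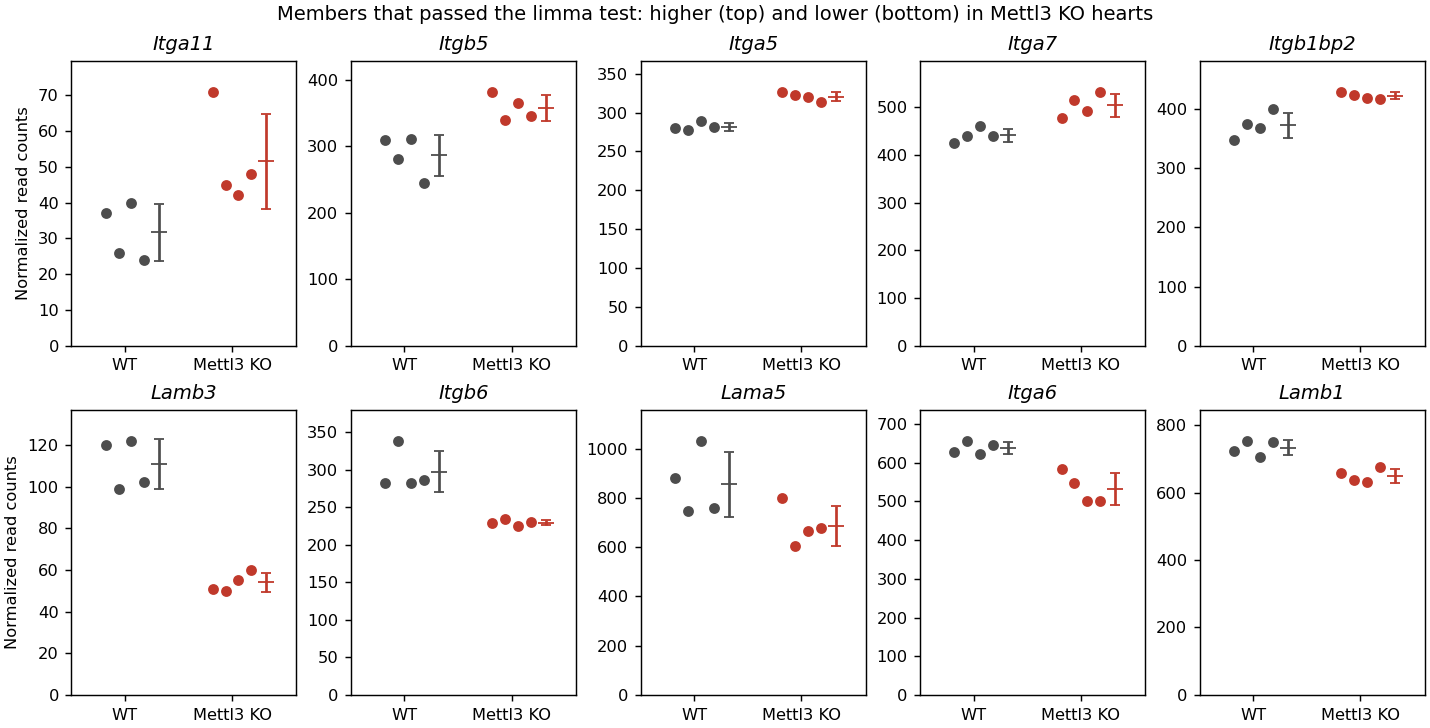
Normalized read counts (vertical axes, starting at 0) of the 10 members that passed the limma test, in 4 WT (grey) and 4 Mettl3 KO (red) libraries. Points are libraries and bars are mean ± SD. The genotypes do not overlap in any of these members except Lama5, and the Lamb3 values of the Mettl3 KO libraries lie between 50 and 60 against 99 to 122 in WT.

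Among the integrin alpha chains, 3 were higher, 1 was lower and 13 did not pass the test, and the median log2 fold change of the 17 tested was 0.15. Their summed value hardly differed between genotypes, with 3977.0 ± 68.4 in WT and 3988.2 ± 164 in Mettl3 KO hearts (SD, n = 4 each). The chains that passed thus moved in both directions, 3 up and 1 down, while the total was similar.

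The alpha chains that bind collagen are Itga1, Itga2, Itga10 and Itga11, and Itga11 was the one that passed. Itga11 (ENSMUSG00000032243, mm39 chromosome 9, 62585108 to 62691264, plus strand), a receptor for fibrillar collagen known from fibroblasts, had 37, 26, 40 and 24 normalized read counts in the WT libraries and 71, 45, 42 and 48 in the Mettl3 KO libraries. All Mettl3 KO libraries were above all WT libraries, by a margin of only 2 between the nearest, and Mettl3 KO 1 was far above the rest. It rose by a log2 fold change of 0.68 ± 0.19 (SE; adjusted p = 0.0271 by limma), and by 1.25 with the atrial index (limma adjusted p = 0.00479). Leaving out WT 2, WT 4, Mettl3 KO 1, Mettl3 KO 2 or Mettl3 KO 4 ended the call, with an adjusted p of up to 0.106 and a log2 fold change of 0.52 to 0.80 over the 8 such fits. Itga1, a receptor for collagen and laminin, had 1227.2 ± 55.5 in WT and 1115.0 ± 82.8 in Mettl3 KO hearts (log2 fold change -0.14, limma adjusted p = 0.0865). It was called lower under 5 of the 19 alternatives, namely quantile normalization, both voom fits, the replicate block and without Mettl3 KO 1 (-0.18 to -0.14, limma adjusted p between 0.0135 and 0.0471), and had an adjusted p of up to 0.704 over all 19. Fibroblast markers were higher in the same libraries as Itga11. Of 8 on that list 7 were higher, among them Lum, Col3a1 and Col1a2, and the sum was 3493 to 3883 across WT and 4398 to 5060 across Mettl3 KO libraries. Of 7 markers of activated fibroblasts 5 were higher, with Cilp (log2 fold change 1.84) and Thbs4 (1.61) first, and the sum was 649 to 813 against 1102 to 1594. Adding the atrial index left 7 and 5 higher. Their part in the rise of Itga11, and in those of Itga5 and Itgb5, was not tested. Itga2 stood at 25.2 ± 4.27 and 23.5 ± 3.00. Itga10 was close to the floor, with WT values of 7, 0, 9 and 2 against 6, 7, 9 and 7 with the knockout, and its log2 fold change of 1.06 did not pass (limma adjusted p = 0.263).

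The alpha chains Itga6 and Itga7, both laminin receptors, moved in opposite directions. Itga6 (ENSMUSG00000027111, chromosome 2, 71575960 to 71688760, plus strand), which pairs with Itgb1 or Itgb4 and is strong in endothelium, had 629, 657, 622 and 645 in the WT libraries and 584, 547, 500 and 500 in the Mettl3 KO libraries. No Mettl3 KO library reached the lowest WT value, and Mettl3 KO 3 and 4 were the lowest of all. Its level fell to 83.5% of WT, a log2 fold change of -0.26 ± 0.05 (SE; adjusted p = 0.00282 by limma), and the call held without any single library. With the atrial index as covariate it had a log2 fold change of -0.17 (limma adjusted p = 0.276). Endothelial markers were lower in the same libraries. Of 9 on that list 4 were lower (Tie1, Kdr, Cdh5 and Flt1) and none higher, with a sum of 5229 to 5431 across WT and 4521 to 4946 across Mettl3 KO libraries. Under the atrial covariate 1 of these was called, Cdh5 (limma adjusted p = 0.0263), and the other 3 had an adjusted p of 0.0899 (Tie1), 0.0955 (Kdr) and 0.491 (Flt1). In the fit with genotype only, Cdh5 was lost without WT 2 or Mettl3 KO 3 (adjusted p up to 0.0653) and Flt1 without any single library other than WT 1 (up to 0.145). Their part in the fall of Itga6, and in those of Lama5 and Lamb1, was not tested.

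Itga7 (ENSMUSG00000025348, chromosome 10, 128769645 to 128794155, plus strand), the main laminin-binding alpha chain of adult striated muscle, had 426, 440, 460 and 440 in the WT libraries and 477, 515, 492 and 533 in the Mettl3 KO libraries. The groups did not overlap, with a gap of 17 between WT 3 and Mettl3 KO 1. Its log2 fold change was 0.19 ± 0.05 (SE; adjusted p = 0.0255 by limma). The call rested on most libraries together: it was lost without WT 1, WT 2, WT 4, Mettl3 KO 2, Mettl3 KO 3 or Mettl3 KO 4 (adjusted p up to 0.0932, log2 fold change 0.16 to 0.22), and with the atrial index (0.16, limma adjusted p = 0.320). Itga3, another laminin-binding chain, had 74.0 ± 9.13 in WT and 70.0 ± 3.83 in Mettl3 KO hearts.

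Among the alpha chains that recognise the RGD motif of fibronectin and related ligands, Itga5 passed. Itga5 (ENSMUSG00000000555, chromosome 15, 103252713 to 103275190, minus strand), which forms the classical fibronectin receptor with Itgb1, had 280, 277, 289 and 281 in the WT libraries and 327, 322, 320 and 313 in the Mettl3 KO libraries. Values were tight within each genotype and did not overlap. The log2 fold change was 0.19 ± 0.06 (SE; adjusted p = 0.0440 by limma), near the threshold, and leaving out any of the 8 libraries ended the call (0.18 to 0.20, adjusted p between 0.0564 and 0.100). With the atrial index it was 0.24 (limma adjusted p = 0.139). Itgav, the partner of Itgb3, Itgb5, Itgb6 and Itgb8, had 416 ± 18.6 and 451 ± 28.9 (limma log2 fold change 0.11, 95% interval -0.0043 to 0.23). Itga8 stood at 63.8 ± 7.50 and 72.2 ± 17.4, and the platelet chain Itga2b at 11.8 ± 2.06 and 8.00 ± 2.94, neither of which passed.

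Itga9, which binds tenascin and osteopontin, had WT values of 579, 573, 564 and 595, against 686, 600, 644 and 635 with the knockout. The genotypes did not overlap, yet its adjusted p missed the threshold (log2 fold change 0.15, limma adjusted p = 0.0671). Itga4, a receptor for Vcam1, had 111 ± 4.86 in WT hearts, while the Mettl3 KO libraries spread from 73 to 131. The leukocyte chains Itgal, Itgam, Itgax and Itgae had means between 5.75 and 43.2 in either genotype, and none passed. Itgad was listed at 1, 0, 0 and 0 across the WT libraries, at 1, 0, 0 and 3 across the Mettl3 KO libraries, and was not tested.

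Of the 8 beta chains, 1 was higher and 1 was lower, and both are partners of Itgav. Itgb5 (ENSMUSG00000022817, chromosome 16, 33650035 to 33769708, plus strand), whose dimer with Itgav binds vitronectin, had 309, 280, 311 and 245 in the WT libraries and 382, 339, 365 and 345 in the Mettl3 KO libraries. Every Mettl3 KO value lay above the WT values, and WT 4 was the lowest. It rose by a log2 fold change of 0.33 ± 0.07 (SE; adjusted p = 0.00538 by limma). The call held without any single library (0.25 to 0.37) and with the atrial index (0.47, limma adjusted p = 0.00768).

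Itgb6 (ENSMUSG00000026971, chromosome 2, 60428636 to 60552987, minus strand), known from epithelia and as a chain of an integrin that activates latent TGF-β, had 283, 339, 282 and 287 in the WT libraries and 229, 234, 225 and 231 in the Mettl3 KO libraries. The Mettl3 KO values were within 9 of one another and all below WT, and WT 2 was above the other WT libraries. Its level was 77.2% of WT, a log2 fold change of -0.37 ± 0.07 (SE; adjusted p = 0.00108 by limma), and -0.30 without WT 2 (limma adjusted p = 0.00760). With the atrial index it was -0.41 (limma adjusted p = 0.0205).

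Itgb1, the shared partner of most alpha chains and the highest member per length, had 1282.2 ± 25.0 in WT and 1261.8 ± 70.7 in Mettl3 KO hearts. Its limma log2 fold change was -0.03 with a 95% interval of -0.11 to 0.06, so a change of the size seen for Itgb5 or Itgb6 lies outside that interval. Itgb3 stood at 25.5 ± 4.43 and 29.5 ± 3.87, and Itgb8 at 33.0 ± 7.35 and 38.5 ± 1.73. Itgb4, the partner of Itga6 in hemidesmosomes, had 22.8 ± 7.41 and 22.2 ± 7.37. The leukocyte chains Itgb2 and Itgb7 had 44.0 ± 6.06 and 46.5 ± 6.56, and 8.00 ± 1.83 and 9.25 ± 5.91, respectively. None of these passed.

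To show the start regions of the beta chains that moved in opposite directions, RefSeq promoter windows (build GRCm38.p6, whereas gene locations are in mm39) are printed 5′ to 3′. The Itgb5 window has 250 bases and ends at the start of transcription. The Itgb6 window is printed as 210 bases, because its last 40 lie in an annotated exon, and motifs were searched in all 250. Capitals mark the GC box GGGCGG on either strand, the site recognised by SP factors.
Itgb5, chr16:33829415-33829664, plus strand: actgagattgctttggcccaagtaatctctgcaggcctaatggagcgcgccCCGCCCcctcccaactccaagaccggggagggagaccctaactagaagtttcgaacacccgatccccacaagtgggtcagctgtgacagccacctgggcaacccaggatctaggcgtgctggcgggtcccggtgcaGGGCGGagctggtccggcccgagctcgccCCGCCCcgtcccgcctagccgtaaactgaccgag
Itgb6, chr2:60722644-60722853, minus strand: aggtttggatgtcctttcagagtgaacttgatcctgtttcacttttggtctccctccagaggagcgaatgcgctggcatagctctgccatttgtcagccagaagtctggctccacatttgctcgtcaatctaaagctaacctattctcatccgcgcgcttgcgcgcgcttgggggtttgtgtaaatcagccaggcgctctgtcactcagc
The Itgb5 window held 3 GC boxes and the Itgb6 window none, and 32.7% of all 32851 windows of 250 bases held at least 1. Among the other called members with a window, Lama5 and Lamb1, which fell, had 4 and 2 GC boxes, and Itga5 and Itga11, which rose, had 2 and 0. RefSeq lists a further start of Itgb6 whose window held a CArG box, the motif of serum response factor, in capitals here with the bases on either side.
Itgb6, chr2:60673724-60673753, minus strand: cacctgacttCCTTATAAGGtgaatgagga
A CArG box was found in 1.47% of all windows. These matches describe the letters only.

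Of the 3 proteins named for integrin binding, Itgb1bp2 passed. Itgb1bp2 (ENSMUSG00000031312, X chromosome, 100492694 to 100497147, plus strand) encodes melusin, a muscle protein that binds the tail of the beta chain Itgb1 and is known for its part in the response of the heart to pressure load. It had 347, 375, 367 and 399 in the WT libraries and 429, 424, 418 and 417 in the Mettl3 KO libraries. The Mettl3 KO values were close together and above all WT values. The log2 fold change was 0.18 ± 0.06 (SE; adjusted p = 0.0419 by limma), and leaving out any library other than WT 4 ended the call (0.15 to 0.22, adjusted p up to 0.149), as did the atrial index (0.20, limma adjusted p = 0.213). Itgb1bp1, a cytoplasmic inhibitor of Itgb1 activation, had 90.8 ± 8.26 and 89.0 ± 7.07. Itgb3bp, a centromere protein, had 36.5 ± 6.95 and 31.0 ± 3.16.

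**Figure D2:**
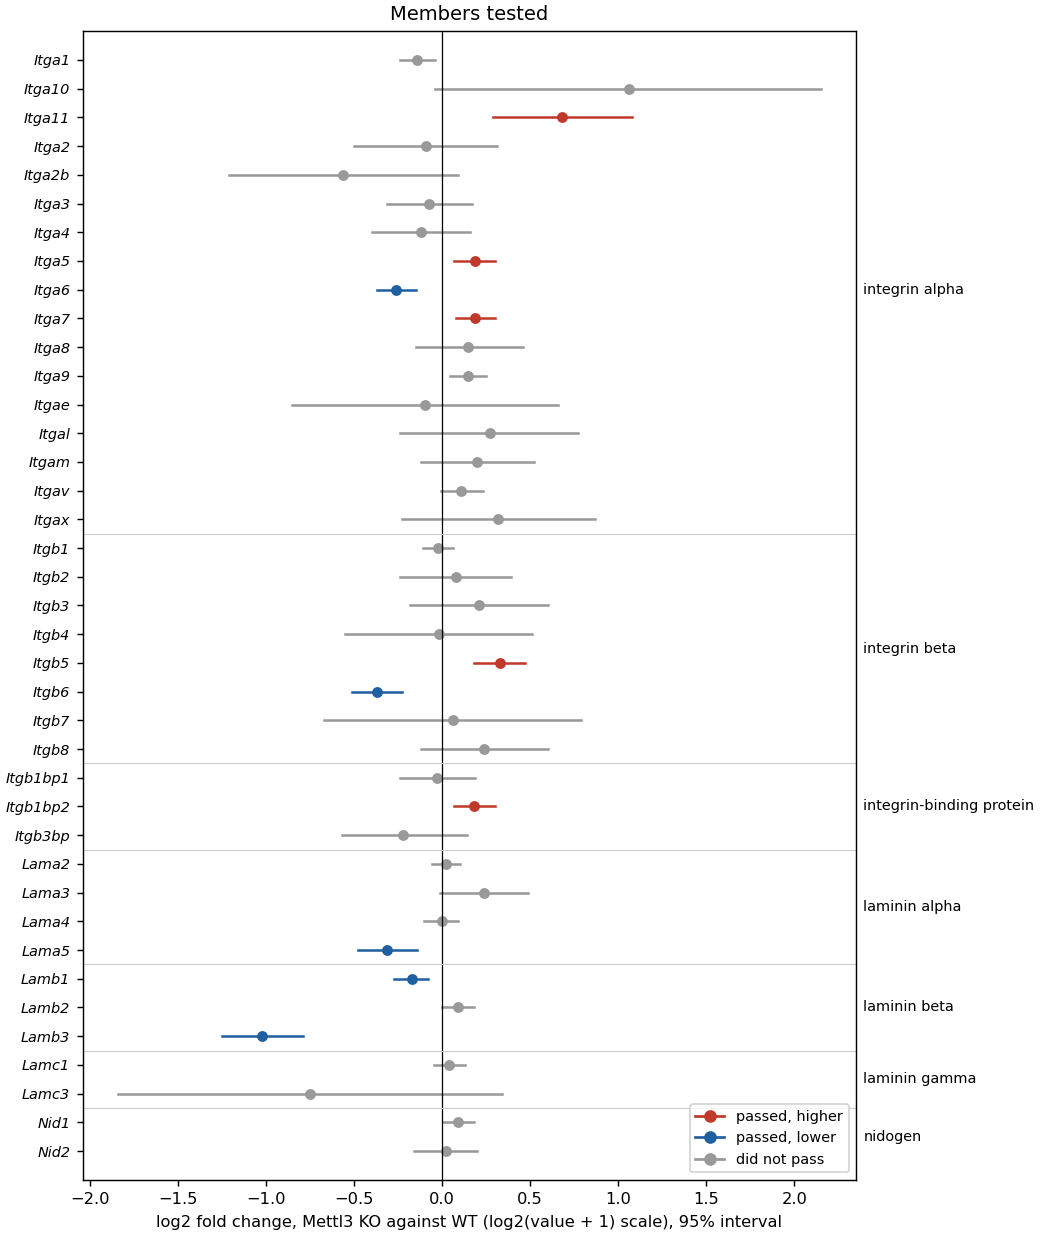
Log2 fold change of Mettl3 KO against WT hearts for 39 of the members tested (horizontal axis, log2(value + 1) scale), ordered by role, with 95% intervals from limma. Red and blue mark members that passed higher and lower, and grey those that did not. Lamb3 lies furthest to the left at -1.02, and the interval of Itgb1 spans 0 and is narrow.

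Laminin chains were lower or did not pass, and none was called higher. The laminins summed to 6521.2 ± 125 in WT and 6365.8 ± 214 in Mettl3 KO hearts (SD, n = 4 each), or 97.6% of WT. Of the alpha chains Lama5 was lower and of the beta chains Lamb1 and Lamb3, and the gamma chains Lamc1 and Lamc3 did not pass.

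Lama2, the alpha chain of the muscle basement membrane, had the highest level per length of the laminin alpha chains, with 1457.2 ± 28.7 in WT and 1482.8 ± 65.0 in Mettl3 KO hearts. Its log2 fold change was 0.02 with a 95% interval of -0.06 to 0.10. Lama4, found in the vessel wall, had 950 ± 59.7 and 948 ± 15.4, with an interval of -0.10 to 0.09. Lama5 (ENSMUSG00000015647, chromosome 2, 179818166 to 179867652, minus strand), a chain of endothelial and epithelial basement membranes, had 882, 748, 1033 and 760 in the WT libraries and 800, 606, 667 and 679 in the Mettl3 KO libraries. Here the genotypes overlapped, since Mettl3 KO 1 was above WT 2 and WT 4, and WT 3 was the highest. The log2 fold change was -0.31 ± 0.08 (SE; adjusted p = 0.0220 by limma).

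That Lama5 difference moved with the libraries that stood apart in atrial genes. With the atrial index as covariate its log2 fold change was 0.026 (limma adjusted p = 0.931). Without WT 3 it was -0.21 (limma adjusted p = 0.0849), and the call was also lost without WT 1, Mettl3 KO 2, Mettl3 KO 3 or Mettl3 KO 4 (adjusted p up to 0.128). WT 3 had the lowest atrial index and the highest Lama5 value. The part of atrial tissue in this difference was not tested beyond the covariate.

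Lama3 (chromosome 18), the alpha chain of the laminin that contains Lamb3, had 63.2 ± 3.86 in WT and 75.5 ± 11.6 in Mettl3 KO hearts (log2 fold change 0.24, limma adjusted p = 0.272). Lama1, a chain of early embryonic basement membranes, was listed at 1, 1, 2 and 0 in WT and at 0 in all 4 Mettl3 KO libraries, all under the floor, and was not tested.

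Among the members that passed the test, Lamb3 had the largest log2 fold change. Lamb3 (ENSMUSG00000026639, chromosome 1, 192890007 to 193026186, plus strand), the beta chain of the laminin that anchors epithelia and is otherwise little known from the heart, had 120, 99, 122 and 102 in the WT libraries and 51, 50, 55 and 60 in the Mettl3 KO libraries. The highest Mettl3 KO value was 60 and the lowest WT value 99. The mean fell from 111 ± 11.9 to 54.0 ± 4.55 (SD, n = 4 each), which was 48.8% of WT. Its log2 fold change was -1.02 ± 0.11 (SE; adjusted p = 3.47e-06 by limma), and it passed under all 19 alternatives, with values between -1.07 and -0.97. With the atrial index the value was -1.03 (limma adjusted p = 0.000988).

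The annotated span of Lamb3 covers other genes. On the same strand it overlaps Gm37691, an unspliced model of 2573 overlapping bases, which fell from a mean of 34.5 to 21.0 (log2 fold change -0.68, limma adjusted p = 0.0464). On the opposite strand lies Hsd11b1, which encodes an enzyme that regenerates active glucocorticoid and fell from 56.5 to 36.8 (log2 fold change -0.60, limma adjusted p = 0.0102), and G0s2, an inhibitor of triglyceride lipase, which had 108 and 111 and did not pass. Reads were assigned by strand and reads shared by several genes were left out, so the reads of Lamb3 and Hsd11b1 were separated as far as strand assignment held. Whether these changes at one locus are linked was not tested.

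The promoter window of Lamb3 is shown because it belongs to the called member with the largest fold change. It comes from RefSeq (GRCm38.p6) and ends at the base before an annotated exon. The span of Lamb3 given above is in mm39. Whether this start is the first within that span or lies further inside it was not examined.
Lamb3, chr1:193301744-193301992, plus strand: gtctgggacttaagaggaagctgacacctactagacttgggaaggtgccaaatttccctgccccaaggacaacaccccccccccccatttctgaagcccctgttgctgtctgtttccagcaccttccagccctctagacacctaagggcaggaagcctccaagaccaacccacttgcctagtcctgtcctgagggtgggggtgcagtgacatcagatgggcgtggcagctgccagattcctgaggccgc
It has no capitals, because none of the 4 motifs searched on both strands was found in it: the GC box, the CArG box, the TEAD motif GGAATG, which 12.6% of all windows held, and the AP-1 motif TGANTCA, which 6.75% held. No match says only that these letters are not in this window. RefSeq lists a further start of Lamb3 whose window, which reaches into that annotated exon and is not printed, held 1 TEAD motif and none of the other motifs.

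Lamb1 (ENSMUSG00000002900, chromosome 12, 31315233 to 31379643, plus strand), the beta chain shared by many laminins of muscle and vessels, had 723, 754, 706 and 751 in the WT libraries and 657, 637, 631 and 676 in the Mettl3 KO libraries. All Mettl3 KO libraries were below all WT libraries. Its log2 fold change was -0.17 ± 0.04 (SE; adjusted p = 0.0189 by limma), with the atrial index -0.20 (limma adjusted p = 0.0992). The call was lost without WT 2, WT 4, Mettl3 KO 2 or Mettl3 KO 3, with an adjusted p of up to 0.0739 and a log2 fold change of -0.19 to -0.16 over the 8 fits. Lamb2, the beta chain enriched at synapses and in arterial walls, had 1114.8 ± 26.6 in WT and 1190.5 ± 67.7 in Mettl3 KO hearts and did not pass (log2 fold change 0.09, limma adjusted p = 0.227).

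Lamc1, the gamma chain of nearly all laminins of the heart, had 1210.5 ± 34.3 in WT and 1246.0 ± 60.0 in Mettl3 KO hearts, with a log2 fold change of 0.04 and a 95% interval of -0.05 to 0.13. Lamc3 had WT values of 7, 3, 1 and 5 against 3, 2, 3 and 0 with the knockout. These values are near the floor, and it did not pass (limma log2 fold change -0.75, 95% interval -1.84 to 0.34).

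The nidogens did not pass with limma or with limma voom, and 1 of them, Nid1, had an unadjusted p under 0.05. Nid1, the major linker of laminin and type IV collagen, had 995, 942, 1000 and 972 in the WT libraries and 1052, 1030, 1071 and 1012 in the Mettl3 KO libraries. These values did not overlap, but the difference was small (log2 fold change 0.09, 95% interval 0.01 to 0.18, limma adjusted p = 0.193). Nid2 had 263 ± 42.7 and 265 ± 14.0 (log2 fold change 0.02, interval -0.16 to 0.20).

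To compare levels between genes, values were divided by the exon length of each gene in kb, which was found for all 42 members. Itgb1 led with 314 normalized read counts per kb in WT hearts, followed by Itgb1bp2 with 207, Lamb2 with 183, Lamc1 with 146 and Nid1 with 141, and this order of the first 5 was the same in Mettl3 KO hearts. Among laminin alpha chains the WT levels per kb were 89.2 for Lama2, 78.7 for Lama4 and 75.1 for Lama5, against 5.89 for Lama3. The most abundant alpha chains of integrins per kb in WT hearts were Itga9 with 75.1, Itga6 with 70.7, Itga1 with 66.0, Itga5 with 57.1 and Itga7 with 54.6. Itga6 was above Itga7 in every WT library. In Mettl3 KO hearts the means were 59.0 for Itga6 and 62.3 for Itga7, and in Mettl3 KO 1 Itga6 was still the higher, with 64.7 against 58.9. Lamb3 had 16.7 per kb in WT and 8.17 in Mettl3 KO hearts, and moved from the 20th to the 25th place among the members.

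**Figure D3:**
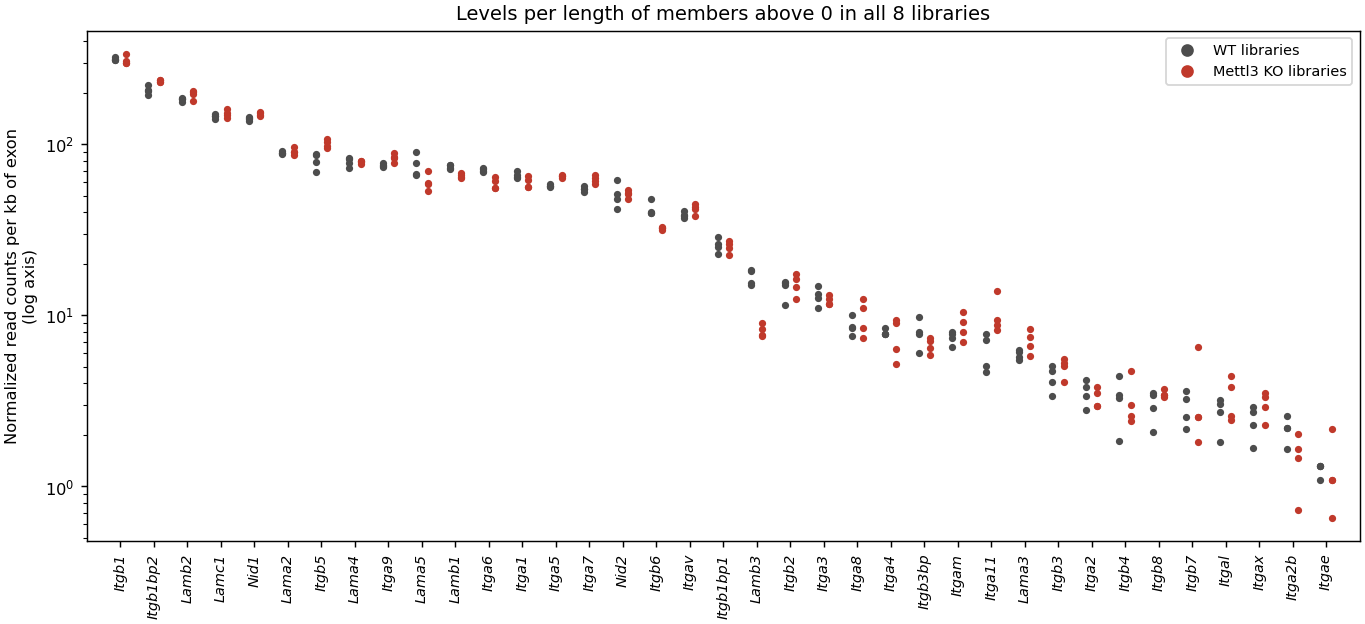
Normalized read counts per kb of exon (log axis) of reported members above 0 in all 8 libraries, ordered by their WT mean. Each point is a library, WT in grey and Mettl3 KO in red. Itgb1 leads in both genotypes at 314 and 309 per kb, and the red points of Lamb3 and Itgb6 lie clear below the grey ones.

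Ratios of related members within a library do not depend on the scaling of libraries. The pairs were chosen after their values were seen, so the ratios are a description with no test. Lamb3 divided by Lama3 was 1.75 ± 0.206 in WT and 0.726 ± 0.114 in Mettl3 KO hearts (SD, n = 4 each), with 1.5 the lowest WT value and 0.887 the highest Mettl3 KO value. Itgb5 divided by Itgb6 was 0.969 ± 0.149 in WT and 1.56 ± 0.104 in Mettl3 KO hearts, again without overlap. Itga7 divided by Itga6 was 0.692 ± 0.0320 and 0.952 ± 0.104, and Lamb1 divided by Lamb2 was 0.659 ± 0.0328 and 0.547 ± 0.0319, also without overlap. Lama5 divided by Lama2 did overlap, with 0.587 ± 0.0860 and 0.464 ± 0.0561.

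**Figure D4:**
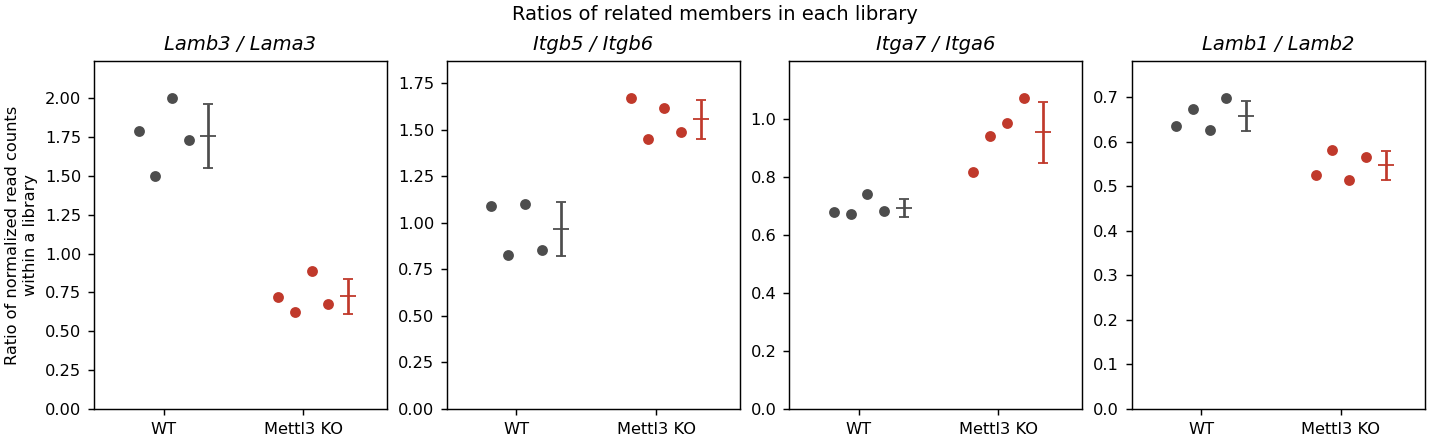
Ratio of normalized read counts of 2 members within each library (vertical axes, starting at 0) for 4 pairs, in WT (grey) and Mettl3 KO (red) hearts. Points are libraries and bars are mean ± SD. The genotypes do not overlap in any of the 4 pairs, and Lamb3 / Lama3 is 0.625 to 0.887 in Mettl3 KO libraries against 1.5 to 2.00 in WT.

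The genes around the members were read from lists. Of 23 adaptor and signalling genes of integrins, 1 was higher and none lower, and the median log2 fold change was -0.01. The higher one was Ptk2b, a calcium-responsive relative of focal adhesion kinase, at 47.8 ± 13.1 in WT and 72.0 ± 6.68 in Mettl3 KO hearts (log2 fold change 0.62, limma adjusted p = 0.0162). Its call was lost without WT 2 (0.47, limma adjusted p = 0.0767), WT 4, Mettl3 KO 3 or Mettl3 KO 4, and held with the atrial index (1.01, limma adjusted p = 0.00881). The core linkers Tln1, Vcl, Ilk and Fermt2 had log2 fold changes between -0.01 and 0.03 and did not pass. An unadjusted limma p under 0.05 was found for 4 genes of this list. They were Ptk2b, Ptk2 (-0.15), Sharpin (-0.30) and Parva (0.12).

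Over all genes tested, 4.72% were called higher and 3.19% lower. Of 23 genes for partners of laminin in the basement membrane, 8 were higher and 2 were lower, with a median log2 fold change of 0.10. The largest changes were those of Fras1 (1.14, limma adjusted p = 0.0111), Col4a6 (0.92, 0.0364), Smoc1 (0.64, 0.00603), Frem2 (0.60, 0.000371) and Egflam, which fell by 0.60 on the log2 scale (0.00154). Fras1 overlapped between genotypes, with WT values of 26, 15, 9 and 14 against 23, 28, 42 and 50 with the knockout, and the libraries that stood apart in atrial genes also stood apart here: WT 3 was the lowest and Mettl3 KO 1 lay within the WT range. With the atrial index Fras1 had a log2 fold change of 0.16 (limma adjusted p = 0.883), and its call was also lost without Mettl3 KO 3 (1.04, limma adjusted p = 0.0721) or Mettl3 KO 4 (0.96, limma adjusted p = 0.0768). Col4a6 was lost without WT 2, WT 3, Mettl3 KO 1, Mettl3 KO 3 or Mettl3 KO 4 (0.70 to 0.96, limma adjusted p up to 0.153), and Hmcn1, also among the 8, without any single library other than WT 4 or Mettl3 KO 1 (0.19 to 0.24, limma adjusted p up to 0.144). When the index was added, 1 gene of this list, Dag1, was still called (0.38, limma adjusted p = 0.000665), and none was called lower. Fras1 and Frem2 act in one complex of epithelial basement membranes, Smoc1 is a calcium-binding matrix protein, and Egflam encodes pikachurin, a ligand of dystroglycan. Dag1, which encodes dystroglycan, the laminin receptor of muscle outside the integrin family, also rose, from 1275.0 ± 71.6 to 1493.5 ± 115 (log2 fold change 0.23, limma adjusted p = 0.00579). The type IV collagen chains Col4a3 and Col4a4 rose by 0.54 and 0.45, whereas the main chains Col4a1 and Col4a2 had -0.05 and -0.04 and did not pass.

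Of 16 integrin ligands outside the basement membrane, 7 were higher, against 4.72% of all genes, and none was lower. The median log2 fold change was 0.24. The 7 were Postn, which is also on the list of activated fibroblasts (0.98, limma adjusted p = 2.16e-06), Tnc (0.92, 0.000535), Ccn2 (0.81, 4.82e-06), Thbs1 (0.81, 1.70e-06), Thbs2 (0.47), Vcam1 (0.47) and Fn1 (0.25, 0.00452). Tnc (0.86, limma adjusted p = 0.0516) and Vcam1 (0.45, limma adjusted p = 0.114) were not called with the atrial index and the other 5 were. Periostin, tenascin C, thrombospondins and fibronectin are matrix proteins of tissue repair. Fn1, the ligand of the dimer of Itga5 and Itgb1, had 802 ± 47.8 in WT and 959 ± 78.4 in Mettl3 KO hearts.

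Besides the fibroblast and endothelial markers, other cell types were read the same way. For all of these lists the shares over all genes tested were 4.72% called higher and 3.19% lower. Of 9 markers of smooth muscle and pericytes 2 were lower, Notch3 and Abcc9, with a sum of 4766 to 5173 against 4408 to 4723. The contractile markers on that list had positive log2 fold changes that did not pass (Tagln 0.41, Myh11 0.17, Acta2 0.14 and Cnn1 0.68). Of 9 macrophage markers Cd163 was lower, with sums of 1302 to 1587 and 1317 to 1549, and its call was lost without WT 1, WT 3, Mettl3 KO 3 or Mettl3 KO 4 (limma adjusted p up to 0.0861). Of 6 atrial markers, which together make up the atrial index, 5 were higher. The other, Kcnj3, had a log2 fold change of -0.14 (limma adjusted p = 0.290). Bmp10 was listed at 0 in all 4 WT libraries and in Mettl3 KO 1. Nppa was above all WT libraries in every Mettl3 KO library, Mettl3 KO 1 included. It stayed called with the index (0.58, limma adjusted p = 0.016). The calls of Myl7 and Myl4 were lost without Mettl3 KO 2, Mettl3 KO 3 or Mettl3 KO 4 (limma adjusted p up to 0.124 and 0.0721). Of 6 mesothelial markers Upk3b and Lrrn4 were higher (sums of 75 to 120 and 100 to 161), and of 5 Schwann cell markers Mbp was (118 to 160 and 133 to 187). Lrrn4 was lost without WT 2, WT 3, Mettl3 KO 3 or Mettl3 KO 4 (limma adjusted p up to 0.123), and Upk3b without Mettl3 KO 3 or Mettl3 KO 4 (up to 0.0996). None of the calls on the lists of smooth muscle and pericytes, macrophages, mesothelium and Schwann cells held with the atrial index (limma adjusted p between 0.14 for Notch3 and 0.898 for Upk3b). None of the markers of lymphocytes (6 tested, sums of 14 to 25 and 11 to 30) or of platelets and neutrophils (4 tested, 34 to 43 and 28 to 42) passed with limma or with limma voom, and the number with an unadjusted p under 0.05 was 1 and 0. No listed marker found in the table was at 0 in all libraries. The part of these cell types in the members' changes was not tested.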

How the data were processed

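Stranded single-end libraries (72 bases) of total heart RNA from 4 WT and 4 Mettl3 KO mice had been made and processed by the authors. According to the study's methods and the submitters' processing notes, reads were trimmed with Trimmomatic 0.39, aligned with STAR 2.7.11a to mm39 (Ensembl release 109), freed of duplicates with Picard 3.1.1, counted over exons by strand with featureCounts 2.0.4 without reads of several genes, and normalized with DESeq2 1.36.0. Duplicate removal in single-end data can lower abundant short transcripts. The deposited values are a score: normalized counts rounded to whole numbers, not raw counts.

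Therefore log2(value + 1) of genes with a mean of at least 1 was fitted with limma 3.58.1 (R 4.3.3; mean-variance trend, genotype only, two-sided, Benjamini-Hochberg over 20313 genes, threshold 0.05). Fold changes on this scale understate those of low genes. Reads per library were estimated from the spacing of low values. All pairs of libraries differed beyond sampling noise. Both scripts were tested on simulated data. Called members were named with every library, other members by a mean of at least 100 or a role shared with a called member, and of each pathway list the called genes with the 5 largest changes. Further genes of those lists (Dag1, collagen chains, core linkers, other ligands) were named after their values were seen. Exon lengths came from GENCODE M21 (GRCm38), matched by gene for 42 members, and promoters from RefSeq, matched for 7 of 10 called members. Alternatives were 2 scalings, 3 variance models, 2 filters, 2 pseudocounts, a replicate block, an atrial index and each library left out. The members and lists were chosen with earlier results of these data known. Of the members, 1 is not reported here by name, though counts and sums include it.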

Additional observations from a re-analysis of the deposited data

Results flagged for a closer look

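The 42 members, the summed values and the estimated reads were searched in the 4 libraries of each genotype. In 6 of these 88 groups, each of them a member, the highest or lowest library lay apart from the other 3 by a larger share of the group's range than Dixon's 95% critical value allows, where chance gives about 4.4. Among called members this concerned Itgb6, with 339 in WT 2 against 282 to 287 in the other WT libraries (0.912). Itga4 had 118 in WT 1, well above the nearest other WT library (0.9 of the range), and the leukocyte chain Itgb2 had 35 in WT 4 against 46 to 48 (0.846). Itgb7 had 18 in Mettl3 KO 1 against 5 to 7 (0.846). Itgad with 1 in WT 1 against 0 and Itgae with 5 in WT 2 against 6 both gave 1, from differences of a single count.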

How the results depend on the processing

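Lamb3 passed under all 19 alternatives, Itgb5 and Itgb6 under 18 and Itga6 under 17, whereas Itga11 and Lamb1 passed under 13, Lama5 under 12, Itga7 under 11, Itgb1bp2 under 7 and Itga5 under 4. Against 5 members called higher, scaling to equal totals gave 3, limma without a trend 0, the replicate block 3, the atrial index 2 and leaving out a library 1 to 3. Against 5 called lower, limma without a trend gave 1, the atrial index 2 and leaving out a library 3 to 6. Calls over all genes tested also changed, from 7.91% in the main fit. Their share was 7.9% with equal totals, 1.58% without a trend and 6.63% with the replicate block. It was 4.38% with the atrial index and 4.95% to 7.84% with a library left out. Limma without a trend called 321 genes in all against 1607, and Lamb3 was its 1 member (limma adjusted p = 0.0104). With the replicate block 6 members were lower, Itga1 being added (limma adjusted p = 0.0471). Libraries of the same number deviated together with r of only 0.052, 0.042, -0.041 and 0.088. For libraries of unlike number r ran from -0.185 to 0.198. Whether same-numbered libraries were handled together cannot be judged from these values. The other scalings, filters, pseudocounts and voom fits gave 4 or 5 higher and 5 or 6 lower. The cause of these differences was not tested.

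Of the called members only Lama5 changed sign under any alternative, to 0.026 with the atrial index. That covariate also turned Itga4 (0.18), Itga8 (-0.08), Itgae (0.65), Itgam (-0.07), Itgb1 (0.059), Itgb1bp1 (0.15) and Nid2 (-0.20), none of which had passed, and quantile normalization turned Itgb4 (0.0012). Leaving out single libraries gave log2 fold changes on both sides of 0 for Itga4 (-0.24 to 0.039), Itgae (-0.36 to 0.12), Itgb2 (-0.026 to 0.17), Itgb4 (-0.25 to 0.15), Itgb7 (-0.29 to 0.27), Itgb1bp1 (-0.079 to 0.026), Lama2 (-0.0048 to 0.045), Lama4 (-0.043 to 0.025) and Nid2 (-0.063 to 0.12). Members with values under about 10, such as Itga10, Lamc3, Itgae and Itgb7, have wide intervals. They did not pass, which does not show that they were unchanged.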
